A study of Mus musculus with 24 samples.

Results

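The genes described here belong to 2 families that act one after the other in cytokine signalling: 5 genes for STAT transcription factors (Stat2, Stat3, Stat5a, Stat5b and Stat6) and 4 genes for inhibitors of the SOCS family (Socs1, Socs2, Socs3 and Cish). They were picked by symbol with earlier results of these data known, the rule itself using no measured value, and are 9 of the 55291 gene symbols counted. RNA was sequenced from cultured mouse pulmonary fibroblasts in 24 libraries, 3 for each of 8 conditions. The cells came from C57BL/6 mice aged 4 to 8 weeks that were either wild type (WT) or labelled TLR4-/-, a line of the same background that by its label lacks Toll-like receptor 4, and lungs of 3 to 4 mice were pooled for each group of fibroblasts. At passages 3 to 6 and after a night in reduced-serum medium, the fibroblasts of each genotype received for 24 h either the vehicle, phosphate-buffered saline (PBS), or recombinant mouse cold-inducible RNA-binding protein at 1 μg/ml (rmCIRP, made in the authors' laboratory), 2 ng/ml recombinant mouse transforming growth factor β1 (rmTGF-β1), or rmCIRP with rmTGF-β1. Outside the cell, CIRP is a danger signal that Toll-like receptor 4 senses, and TGF-β1 is the classical growth factor of fibrosis. The comparisons ask which of these 9 genes responded to rmCIRP, whether rmTGF-β1 altered them, and whether the response differed with the TLR4-/- label. Since nothing states that the 3 libraries of a condition came from separate pools or cultures, p-values measure only the spread between these libraries, which may be technical.

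STAT proteins wait in the cytoplasm until a cytokine binds its receptor. Janus kinases (JAKs) on the receptor then phosphorylate them, and they pair, enter the nucleus and switch on target genes. SOCS genes are among those targets, and their proteins bind the JAK or the receptor and end the signal, so that the pathway limits itself. In fibroblasts this route carries the signals of interferons and of interleukin 6 (IL-6) and its relatives, and Toll-like receptors feed into it by inducing those cytokines.

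Promoter sequences are shown for the 4 genes whose windows held a binding motif of STAT factors or of the interferon-activated STAT2 complex. Each of these genes had more RNA with rmCIRP in WT cells, as described below. So did Stat5a, whose 2 windows held no such motif. They are RefSeq sequences of the mouse build GRCm38.p6, written 5′ to 3′ on the strand of the gene, with windows found for 8 of the 9 genes. The submitters' processing notes name the build NCBIM37 for the counts, so no coordinate was carried over between them. Capitals mark matches to the interferon-stimulated response element (ISRE, GAAANNGAAA), to the gamma-activated site bound by most STAT pairs (GAS, TTCNNNGAA), or to the GAS spacing preferred by STAT6 (TTCNNNNGAA), each searched on both strands.
Stat2, the 250 bases before its start site, chr10:128270248-128270497, plus strand: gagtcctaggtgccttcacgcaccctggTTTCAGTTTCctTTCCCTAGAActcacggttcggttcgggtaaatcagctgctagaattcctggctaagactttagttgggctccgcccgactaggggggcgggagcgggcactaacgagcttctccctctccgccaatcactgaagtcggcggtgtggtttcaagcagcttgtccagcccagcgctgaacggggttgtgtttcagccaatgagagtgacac
Socs1, the 250 bases before its start site, chr16:10785537-10785786, minus strand: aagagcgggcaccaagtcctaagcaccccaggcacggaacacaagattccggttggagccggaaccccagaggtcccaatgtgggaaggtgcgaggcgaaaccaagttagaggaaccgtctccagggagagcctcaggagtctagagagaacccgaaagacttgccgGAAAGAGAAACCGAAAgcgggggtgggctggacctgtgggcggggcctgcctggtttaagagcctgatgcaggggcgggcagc
Socs3, the 250 bases before its start site, chr11:117969367-117969616, minus strand: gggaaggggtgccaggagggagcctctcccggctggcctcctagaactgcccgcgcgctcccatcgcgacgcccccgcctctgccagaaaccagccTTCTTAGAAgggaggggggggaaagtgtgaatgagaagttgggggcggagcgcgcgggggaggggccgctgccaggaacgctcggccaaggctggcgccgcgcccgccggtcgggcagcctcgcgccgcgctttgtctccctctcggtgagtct
Cish, 270 bases that run across its start site, chr9:107296409-107296678, plus strand: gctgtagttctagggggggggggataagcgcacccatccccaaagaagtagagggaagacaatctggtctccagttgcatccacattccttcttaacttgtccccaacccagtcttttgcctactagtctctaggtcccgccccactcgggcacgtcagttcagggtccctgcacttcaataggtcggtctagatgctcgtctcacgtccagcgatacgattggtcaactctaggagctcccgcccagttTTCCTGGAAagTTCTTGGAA

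The Stat2 window held an ISRE, read on the other strand, from base -222 to base -213 relative to the start site, followed by a TTCNNNNGAA match from -210 to -201. In Socs1 a pair of ISRE matches overlapped, from -83 to -74 and from -77 to -68. Socs3 held a GAS from -154 to -146, counted from a listed start site that lies inside the RefSeq span of the gene, which reaches further upstream. The Cish matches were a pair of GAS elements, the first at the start site itself and the second 11 to 19 bases after it. Among 32851 RefSeq windows of this kind, from 27025 genes, an ISRE was present in 3.44%, a GAS in 8.30% and the longer spacing in 6.95%. The E-box CACGTG, present in 7.15% of all windows, was in none of these genes' windows, and a match to the NF-κB motif, present in 4.51%, was found only in 1 Stat5a window, from -234 to -225. The windows of Stat3, Stat5b and Stat6 held none of the 5 motifs. A match describes the letters only and is not evidence that a factor was bound.

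Depth was even across the series, with 29853346 to 39664606 reads on genes per library and a median of 33585047, and all 9 genes were among the 16258 that passed the filter on low counts. Tlr4 RNA was not lower in the libraries labelled TLR4-/-, and the sources used here do not give which part of the gene is altered. Tlr4 normalised read counts were 718, 802 and 758 in the WT libraries with PBS and 927, 892 and 891 in the PBS libraries labelled TLR4-/-, so those are called the libraries labelled TLR4-/- throughout. Fibroblast markers were abundant in both genotypes, their 8 genes summing to between 399219 and 567908 normalised counts in WT and between 391672 and 535154 in libraries labelled TLR4-/-. Macrophage markers were not absent and differed between genotypes, the 13 genes summing to between 79739 and 99075 in WT and to between 324372 and 412078 in libraries labelled TLR4-/-. Summed markers of smooth muscle reached 85458 to 135593 in WT and 45725 to 84695 with the label, and those of neutrophils (81.0 to 307 and 115 to 390), endothelium (619 to 1009 and 675 to 1464), epithelium (7.43 to 29.8 and 65.0 to 107) and lymphocytes (3.12 to 11.1 and 1.86 to 12.9) were low, with the neutrophil gene S100a9 at 0 in all libraries. In RNA from a whole culture, fewer cells of a type and less RNA per cell cannot be told apart. In libraries labelled TLR4-/- that received both agents, library 3 stood apart from libraries 1 and 2, with a chi-square per degree of freedom of 50.6 and 34.6. With the label and rmTGF-β1 alone, library 3 also differed more from libraries 1 and 2 (13.1 and 17.2) than these did from each other (3.84). All other pairs of a condition lay between 2.67 and 7.66.

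In WT cultures with PBS, Stat6 and Stat3 were the most abundant STAT transcripts per length of exon. They stood at 29.3 ± 1.14 and 23.7 ± 1.11 CPM (counts in each library scaled to the same total) per kilobase (SD, n = 3). Stat5b stood at 6.19 ± 0.25, Stat2 at 2.64 ± 0.079 and Stat5a at 1.65 ± 0.054 on the same scale. Socs3 led the inhibitors at 12.7 ± 1.04, followed by Socs2 at 6.70 ± 0.43, Cish at 1.93 ± 0.13 and Socs1 at 0.98 ± 0.13. Exon lengths for this scale came from GENCODE M21.

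rmCIRP changed most of these genes in WT cultures, raising 5 and lowering 3. Which cell type carried each change was not tested. Stat2, Socs1 and Socs3 rose to between 2.98 and 9.44 times their PBS level, Cish and Stat5a rose less, and Stat3, Stat5b and Stat6 fell slightly. Socs2 alone did not pass the test. The 8 calls at an adjusted p under 0.1 compare with 43.9% of all 16258 genes tested (19.8% higher and 24.1% lower). The libraries of the 2 conditions did not overlap for 7 of the 9 genes, against 50.8% of all genes. The median log2 fold change of the 9 genes was 0.34 and that of all genes -0.02. Adjusted p-values here and below come from the quasi-likelihood test of edgeR, corrected after Benjamini and Hochberg over all genes tested, and all contrasts against the same PBS libraries share those controls.

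**Figure D1:**
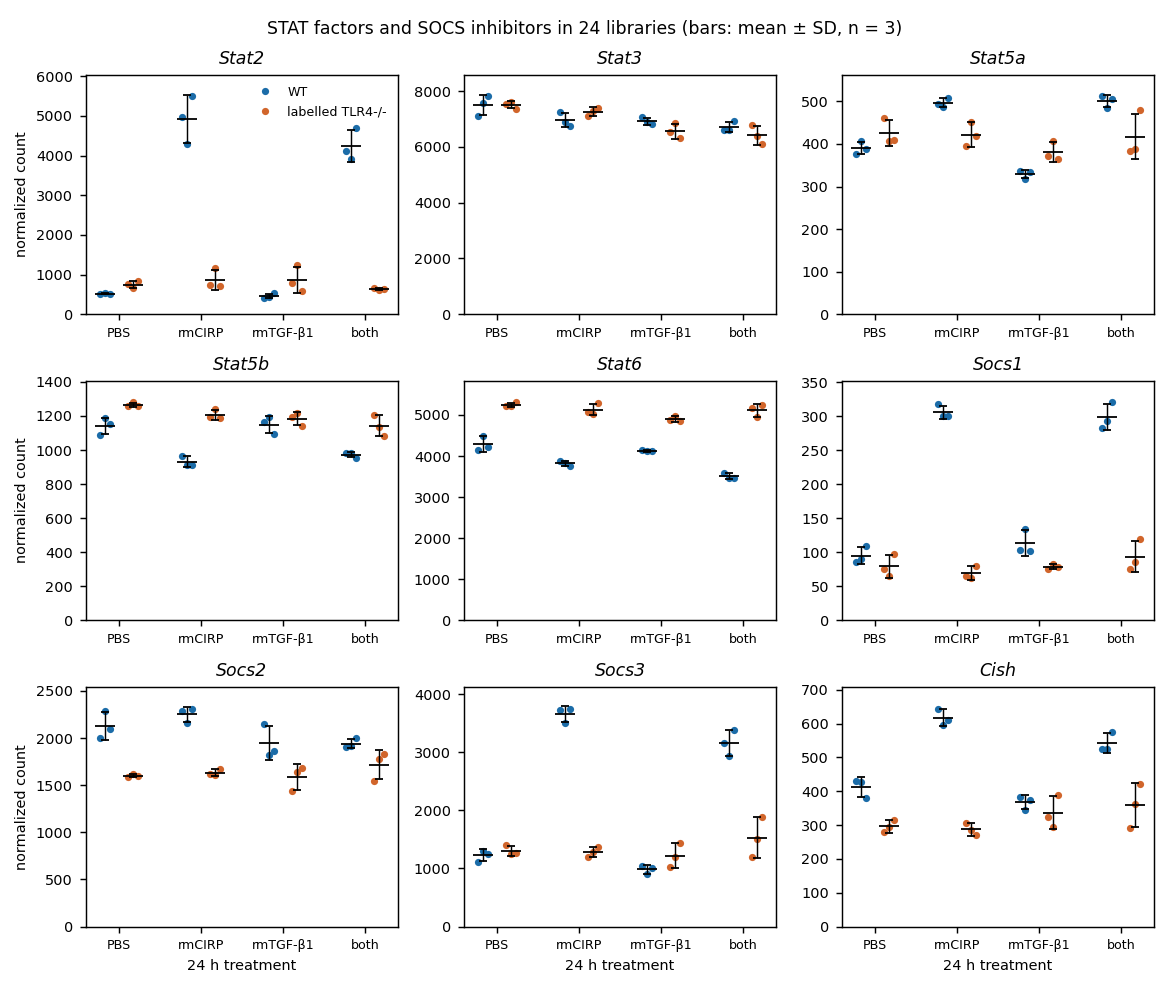
Normalised read counts (vertical axis, linear, starting at 0) of the 9 genes in each of the 24 libraries, by condition, with points for libraries and bars for the mean ± SD of 3. Stat2, Socs1, Socs3 and Cish stand higher in the 6 WT libraries with rmCIRP than in the other WT libraries, and no such step appears in the libraries labelled TLR4-/-.

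Stat2 encodes the STAT that is specific to type I and type III interferons and joins IRF9 in the complex that binds the ISRE. Its normalised read counts in WT were 514, 540.1 and 505 with PBS and 4982, 4299 and 5496 with rmCIRP. With rmTGF-β1 alone they were 418, 435 and 528, and with both agents 4117, 3918 and 4689.7. The 6 libraries with rmCIRP thus lay at 3918 or above and the 6 without it at 540.1 or below. The change with rmCIRP was 9.44-fold (log2 fold change 3.24, SE 0.20, adjusted p = 1.24e-11), and rmCIRP with rmTGF-β1 against rmTGF-β1 gave 9.15-fold (log2 fold change 3.19, adjusted p = 1.93e-11). By size of rise, Stat2 was number 130 of the 16258 genes. Per length of exon it went from 2.64 to 24.2 ± 2.80 CPM per kilobase, a level beside that of Stat3 in the same libraries (21.3 ± 0.68).

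That rise altered the makeup of the STAT pool. Of the summed per-length level of the 5 STAT genes, Stat2 made up 4.16% ± 0.14 in WT with PBS, 31.1% ± 2.84 with rmCIRP and 29.0% ± 1.75 with both agents (SD, n = 3). Stat6 went from 46.2% ± 0.90 to 32.6% ± 1.41 of the pool with rmCIRP, and Stat3 from 37.3% ± 1.07 to 27.4% ± 1.26. In libraries labelled TLR4-/- the share of Stat2 was 5.27% ± 0.63 with PBS and 6.27% ± 1.72 with rmCIRP. These shares rest on the same counts as the fold changes and were not tested on their own.

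**Figure D2:**
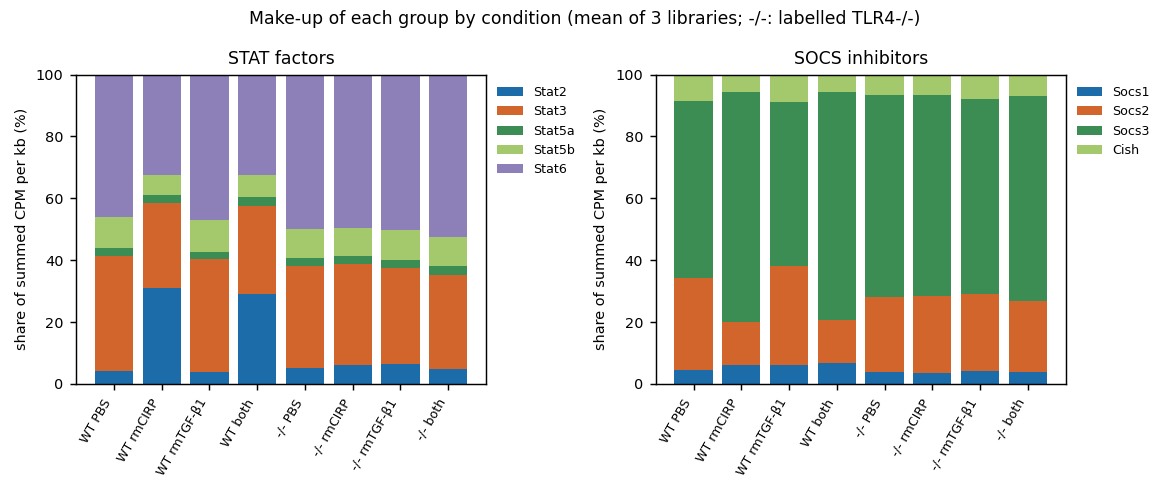
Share (per cent, vertical axis) of each gene in the summed CPM per kilobase of its family, as stacked bars for the mean of 3 libraries in each of 8 conditions, STAT genes and SOCS genes in separate panels. Stat2 and Socs3 widen in both WT conditions with rmCIRP, to 31.1% and 74.3% with rmCIRP alone.

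In the libraries labelled TLR4-/-, Stat2 counted 757, 651 and 835 with PBS, 750.1, 1167 and 711 after rmCIRP, 788, 1237 and 578 after rmTGF-β1 and 662, 601 and 650.0 after both agents. All 12 lay above the WT libraries with PBS and below the WT libraries with rmCIRP. The difference between rmCIRP and PBS was 0.24 on the log2 scale (95% confidence interval -0.17 to 0.65, adjusted p = 0.895), and without rmCIRP library 2, the one at 1167, it was -0.03. The genotypes differed in their response by -3.002 on the log2 scale (TLR4-/- label minus WT, SE 0.28, adjusted p = 3.45e-08), with 31.4% of all genes past the same threshold for this difference (17.1% higher and 14.3% lower). With PBS alone, Stat2 was higher in the libraries labelled TLR4-/- (log2 fold change 0.52, adjusted p = 0.0493), a call that was lost without WT PBS library 1 (adjusted p = 0.105), WT PBS library 3 (0.108) or PBS library 3 of the labelled group (0.164).

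Ifit1 was high in the libraries where Stat2 was high. It encodes an antiviral protein under control of an ISRE, and stood at 78.9, 108 and 74.9 normalised counts in WT with PBS and at 12097, 8855 and 14032 with rmCIRP (log2 fold change 7.05, adjusted p = 3.18e-09). Mx1, an interferon-induced antiviral GTPase, was counted at 1.92, 8.99 and 12.5 with PBS and at 663, 681 and 928 with rmCIRP. Within the libraries labelled TLR4-/-, Ifit1 counts were highest in rmCIRP library 2 (645), rmTGF-β1 library 2 (536) and PBS library 3 (486), which were also the 3 libraries with the most Stat2, and lay between 61.1 and 145 in the other 9. Isg15, a ubiquitin-like protein induced by interferon, and Irf9, the partner of STAT2, are given beside them although picked after their values were seen. In the libraries labelled TLR4-/- Isg15 was highest in rmCIRP library 2 (697) and rmTGF-β1 library 2 (654), and stood at 456 in PBS library 1 and 253 in PBS library 3. In WT, Isg15 counted 191, 178 and 138 with PBS and 7677, 6447 and 9582 with rmCIRP, and Irf9 counted 587, 629 and 565 with PBS and 2615, 2212 and 2685 with rmCIRP.

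**Figure D3:**
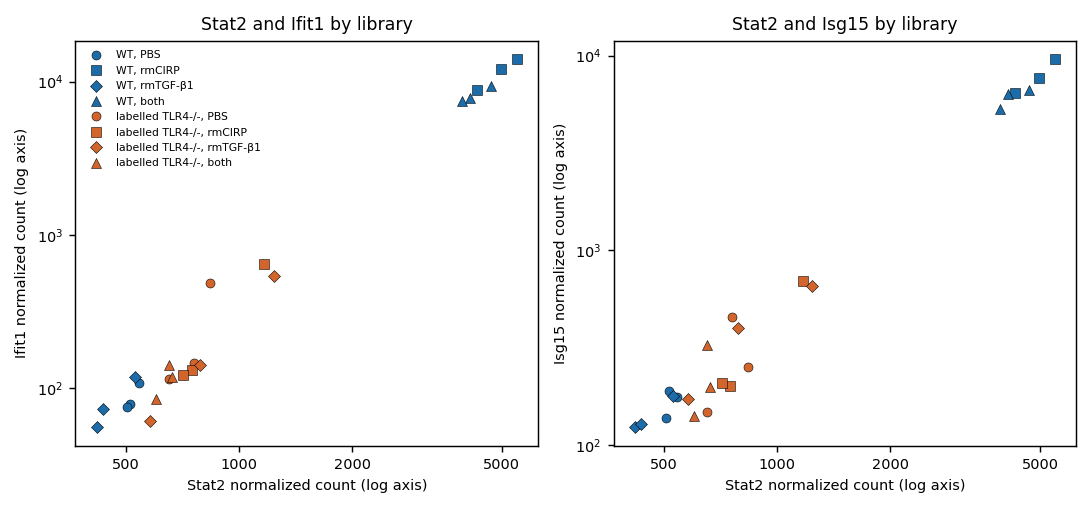
Normalised read counts of Ifit1 (left) and Isg15 (right) on the vertical axes against those of Stat2 on the horizontal axes, all log axes, with 1 point for each of 24 libraries, colour for genotype and shape for treatment. The 6 WT libraries with rmCIRP form a separate group at the upper right of both panels, and 3 libraries labelled TLR4-/- stand above the rest of their genotype for Ifit1.

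Stat3 encodes the STAT of the IL-6 family. It was the most stable of the 9 genes, its highest condition mean being 1.17 times its lowest. WT libraries counted 7122, 7572 and 7809 with PBS, 7251, 6907 and 6744 after rmCIRP, 7056, 6875 and 6809.7 after rmTGF-β1 and 6606, 6589 and 6936 after both agents. The libraries with PBS and with rmCIRP overlapped. Stat3 fell by 0.11 on the log2 scale with rmCIRP (SE 0.042, adjusted p = 0.039), and this call was lost without WT PBS library 3 (adjusted p = 0.196), without WT rmCIRP library 3 (0.161) or with no filter on low counts (0.167). Added to rmTGF-β1, rmCIRP gave a Stat3 difference of -0.05 (95% confidence interval -0.13 to 0.04). With the TLR4-/- label, the counts were 7544, 7609.7 and 7359 with PBS and 7114, 7274 and 7408 with rmCIRP, which overlap, and 6529.9, 6839.7 and 6313 with rmTGF-β1, all lower than with PBS. Libraries with both agents counted 6771, 6404 and 6091. The Stat3 and Stat5a genes overlap in 72 exon bases on opposite strands, 1.01% of the exon bases of Stat5a, and the strand setting of the counting is not given in the sources used here.

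STAT5A and STAT5B, near-identical proteins of neighbouring genes, carry signals of growth hormone, prolactin and the interleukin 2 family. Their transcripts went in opposite directions with rmCIRP. Stat5a in WT counted 377, 406 and 388 with PBS and 494, 487 and 508 with rmCIRP, without overlap, a rise of 1.27-fold (log2 fold change 0.34, SE 0.076, adjusted p = 0.00109). Stat5b counted 1088, 1185 and 1151 with PBS and 967, 915 and 914 with rmCIRP, also without overlap, and fell by 0.30 on the log2 scale (SE 0.046, adjusted p = 2.10e-05). Against rmTGF-β1 alone (337, 318 and 333), Stat5a with both agents (512, 485 and 505) rose by 0.60 (adjusted p = 2.17e-06). Stat5b fell by 0.24 in that comparison (adjusted p = 0.000227), from 1162, 1195 and 1092 to 981, 983 and 955.

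In the libraries labelled TLR4-/-, neither STAT5 gene passed the test with rmCIRP. Stat5a counted 461, 408 and 408 with PBS, 395, 452 and 419 after rmCIRP, 372, 408 and 365 after rmTGF-β1 and 384, 389 and 479 after both agents. Stat5b counted 1258, 1279 and 1258 with PBS, 1194, 1242 and 1186 after rmCIRP, 1195, 1215 and 1141 after rmTGF-β1 and 1208, 1136 and 1084 after both agents. The Stat5b libraries with PBS lay above those with rmCIRP, but the difference was -0.06 on the log2 scale (95% confidence interval -0.15 to 0.03, adjusted p = 0.858). The response differed between genotypes by -0.35 for Stat5a (adjusted p = 0.0207) and by 0.24 for Stat5b (adjusted p = 0.00896). Of the 75-base words of Stat5a transcripts, 5.12% also occur in those of Stat5b (6.99% of the words of Stat5b). The read length is not given in the sources used here, so the part of reads that could not be assigned to either gene is not known.

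Stat6, which carries IL-4 and IL-13 signals, lay higher in the libraries labelled TLR4-/- than in WT. The 12 WT libraries ranged from 3463 to 4498 normalised counts (median 3999.7) and the 12 labelled TLR4-/- from 4855 to 5304 (median 5120.1), so the genotypes did not overlap. With PBS the values were 4136, 4498 and 4229.9 in WT and 5209, 5209 and 5304 with the label (log2 fold change 0.29, SE 0.032, adjusted p = 1.67e-07). Within WT, Stat6 counted 3886, 3830.3 and 3748 with rmCIRP, below all PBS libraries, and fell by 0.17 (adjusted p = 0.000221). It counted 4152, 4114 and 4117 after rmTGF-β1 and 3586, 3463 and 3474 with both agents, a fall by 0.24 (adjusted p = 4.84e-06). The libraries labelled TLR4-/- counted 5061, 5035 and 5292 after rmCIRP, 4875, 4975 and 4855 after rmTGF-β1 and 5179, 4941 and 5238 after both agents. The response to rmCIRP differed between genotypes by 0.15 (adjusted p = 0.0221), a call lost with no filter on low counts (adjusted p = 0.327). Stat6 shares 40 exon bases, 0.91% of its exon length, with Nab2 on the opposite strand.

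Socs1 encodes an inhibitor that binds JAK kinases directly and restrains interferon signalling above all. It was the lowest of the 9 genes with PBS, at 85.7, 89.9 and 109 normalised counts in WT, and reached 317, 300.4 and 300.3 with rmCIRP. With rmTGF-β1 the counts were 104, 135 and 102, and with both agents 282, 294 and 320.3. The rise with rmCIRP was 3.21-fold (log2 fold change 1.68, SE 0.14, adjusted p = 2.57e-09), and on top of rmTGF-β1 the log2 fold change was 1.39 (adjusted p = 4.50e-08). All 12 libraries labelled TLR4-/- lay between 62.2 and 119: 76.1, 64.6 and 97.6 with PBS, 65.9, 62.2 and 80.6 after rmCIRP, 75.7, 82.9 and 78.0 after rmTGF-β1 and 75.9, 85.4 and 119 after both agents. The difference with rmCIRP there was -0.19 (95% confidence interval -0.55 to 0.17), and the genotypes differed in response by -1.88 (SE 0.22, adjusted p = 1.63e-06).

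Socs3 encodes the inhibitor that docks on the receptor chain shared by the IL-6 family. It was the most abundant of the 4 SOCS transcripts per length of exon in all 8 conditions. In WT it counted 1109, 1309 and 1256 with PBS and 3727, 3501 and 3752 with rmCIRP, a rise of 2.98-fold (log2 fold change 1.57, SE 0.12, adjusted p = 5.60e-10). With rmTGF-β1 it counted 1041, 897 and 1013, below all PBS libraries, and with both agents 3153, 2939.8 and 3381, a rise of 3.20-fold over rmTGF-β1 (log2 fold change 1.68, adjusted p = 2.85e-10). Of the summed per-length level of the 4 SOCS genes, Socs3 made up 56.9% ± 1.16 with PBS and 74.3% ± 0.28 with rmCIRP in WT, while Socs2 went from 29.99% ± 0.64 to 13.9% ± 0.087 (SD, n = 3). Socs1 went from 4.40% ± 0.56 to 6.18% ± 0.21 and Cish from 8.68% ± 0.93 to 5.64% ± 0.15. A smaller share is not a fall in level, since the sum itself grew. Cish RNA rose 1.49-fold in this comparison and Socs2 changed by 0.08 on the log2 scale without passing the test.

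With the TLR4-/- label Socs3 counted 1399, 1254 and 1260.3 with PBS and 1198, 1286 and 1366 with rmCIRP, which overlap (difference -0.02 on the log2 scale, 95% confidence interval -0.27 to 0.24). The share of Socs3 among SOCS genes was 65.1% ± 1.87 and 64.9% ± 1.36 in these conditions. The genotypes differed in response by -1.59 (SE 0.17, adjusted p = 3.33e-07). Libraries with rmTGF-β1 counted 1022, 1199 and 1445 and those with both agents 1194, 1513 and 1890.2. That last difference was 0.32 (adjusted p = 0.178), and the highest value belonged to the library that stood apart in this condition.

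Cish, the first SOCS gene to be described, encodes an inhibitor induced by STAT5. It counted 429, 428 and 379.9 in WT with PBS and 644, 595 and 611 with rmCIRP, a rise of 1.49-fold (log2 fold change 0.57, SE 0.10, adjusted p = 9.77e-05) with no overlap. With rmTGF-β1 it counted 383, 344 and 374, and with both agents 524, 526 and 576 (log2 fold change 0.56, adjusted p = 0.000192). In the libraries labelled TLR4-/- it was lower already with PBS, at 279, 294 and 316, than in WT (log2 fold change -0.48, adjusted p = 0.000928). There it counted 306, 286 and 269 after rmCIRP, 324, 295 and 389.9 after rmTGF-β1 and 291, 363 and 422 after both agents. The response to rmCIRP differed by -0.61 between genotypes (adjusted p = 0.00435). Cish exons overlap those of the predicted genes Gm17040 and Gm17041 on the other strand by 261 and 479 bases, but only 131 and 0 reads were counted on these in all libraries together.

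Socs2, an inhibitor of growth hormone signalling, was the gene that passed none of the treatment comparisons tested. WT libraries counted 1996, 2284 and 2094 with PBS, 2283, 2158 and 2313 after rmCIRP, 2152, 1817 and 1863 after rmTGF-β1 and 1905, 1918 and 1998 after both agents. The libraries with both agents thus lay below those with rmCIRP alone, but rmTGF-β1 on top of rmCIRP was not tested for any gene. The difference with rmCIRP was 0.08 (95% confidence interval -0.06 to 0.22, adjusted p = 0.386), and on top of rmTGF-β1 it was -0.01 (-0.15 to 0.13). The libraries labelled TLR4-/- counted 1591, 1622 and 1595 with PBS, 1619, 1607 and 1675 after rmCIRP, 1435, 1641 and 1685 after rmTGF-β1 and 1544, 1774 and 1830.5 after both agents. With PBS the level was lower than in WT (log2 fold change -0.41, adjusted p = 3.59e-05).

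In the libraries labelled TLR4-/-, none of the 9 genes passed the test with rmCIRP. Their log2 fold changes ran from -0.19 (Socs1) to 0.24 (Stat2), and the smallest adjusted p was 0.858. None had an unadjusted p under 0.05 and none passed with DESeq2. Over all genes 0.0% were called by edgeR, while 1136 had an unadjusted p under 0.05 and DESeq2 called 32. The libraries with PBS and rmCIRP did not overlap for 1 of the 9 genes (Stat5b), against 13.7% of all genes. The difference between genotypes, tested directly, passed for 7 of 9 genes, lower with the label for Stat2, Stat5a, Socs1, Socs3 and Cish and higher for Stat5b and Stat6. Stat3 (0.07, adjusted p = 0.419) and Socs2 (-0.04, adjusted p = 0.781) did not differ detectably. Of the 13 macrophage markers, 0 were called with rmCIRP in the libraries labelled TLR4-/-, and in WT 5 rose and 7 fell with a median log2 fold change of -0.24. Other markers moved in the same WT comparison: all 4 smooth muscle markers fell (median -0.57), 5 of 8 fibroblast markers fell and 2 rose (median -0.30), 2 of 5 endothelial markers fell, the only neutrophil marker tested rose (1.04) and the only epithelial marker tested fell (-2.65). With the label none of these was called with rmCIRP. The part of any of them in the changes of the 9 genes or in the genotype differences was not tested.

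**Figure D4:**
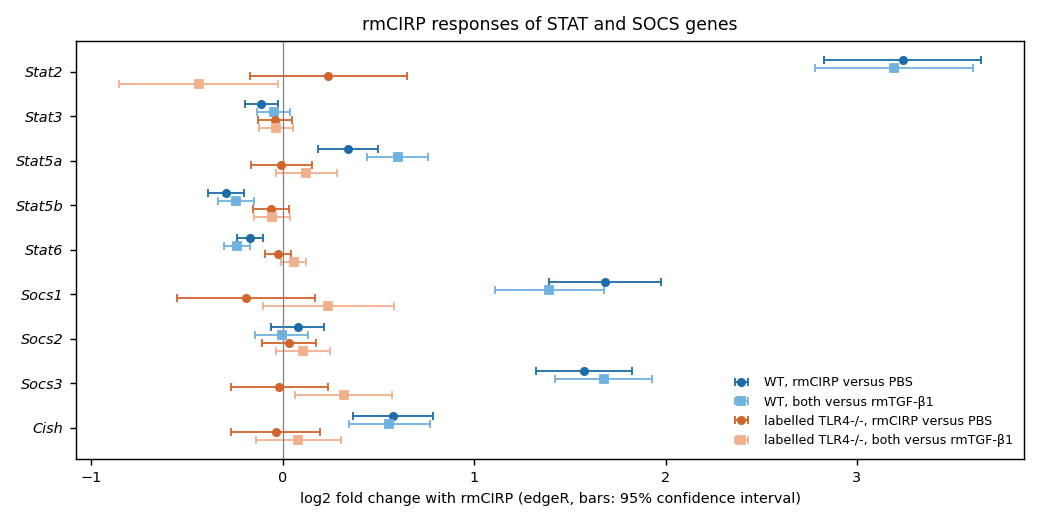
Log2 fold change of the 9 genes (points) with 95% confidence intervals (bars), n = 3 per condition. Both rmCIRP against PBS and both agents against rmTGF-β1 are drawn, in WT libraries and in those labelled TLR4-/-. For rmCIRP against PBS, WT values range from -0.30 (Stat5b) to 3.24 (Stat2), and all 9 intervals of the libraries labelled TLR4-/- include 0. For both agents against rmTGF-β1 with the label, the intervals of Stat2 (-0.86 to -0.025) and Socs3 (0.07 to 0.57) exclude 0.

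When rmCIRP was added to rmTGF-β1 in WT cultures, 7 of the 9 genes changed again. Stat2, Stat5a, Socs1, Socs3 and Cish rose and Stat5b and Stat6 fell, beside 42.2% called among all genes (20.5% higher and 21.7% lower), and the same 7 had no overlap between conditions (50.0% of all genes). The interaction of the 2 agents in WT was called for none of the 9 genes and for 0.0492% of all genes. Its estimates ran from -0.29 for Socs1 to 0.26 for Stat5a (95% confidence interval 0.04 to 0.48, adjusted p = 0.809), which alone had an unadjusted p under 0.05, and DESeq2 called none. In libraries labelled TLR4-/-, adding rmCIRP to rmTGF-β1 gave no call among the 9 genes with edgeR, 2 at an unadjusted p under 0.05 (Stat2 and Socs3) and 1 with DESeq2 (Socs3, adjusted p = 0.0971), beside 2.69% of all genes. Single libraries decided these results. Without rmTGF-β1 library 3, Stat2 (-0.67, adjusted p = 0.034) and Socs3 (0.46, adjusted p = 0.033) were called, and without library 1 of both agents Socs3 (0.47, adjusted p = 0.0116) and Socs2 (0.18, adjusted p = 0.0928) were.

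rmTGF-β1 alone lowered 2 of the 9 genes in each genotype. In WT these were Stat3 (fell by 0.12, adjusted p = 0.0731) and Stat5a (fell by 0.25, adjusted p = 0.0488), beside 12.4% of all genes (5.77% higher and 6.65% lower). PBS and rmTGF-β1 libraries did not overlap for these 2 genes and Socs3, with 29.7% of all genes in that class. Both calls were lost without WT PBS library 2, WT PBS library 3 or WT rmTGF-β1 library 2 and with no filter on low counts, and that of Stat3 also without WT rmTGF-β1 library 3. Socs3 had a log2 fold change of -0.32 (95% confidence interval -0.58 to -0.06, adjusted p = 0.126) and was called by DESeq2 (adjusted p = 0.0835) and when the 6 libraries were fitted alone (adjusted p = 0.00708). In libraries labelled TLR4-/-, Stat3 fell by 0.19 (adjusted p = 0.003) and Stat6 by 0.09 (adjusted p = 0.0547), beside 23.9% of all genes (12.1% higher and 11.7% lower), the Stat6 call being lost without PBS library 3 or rmTGF-β1 library 1 or 3, with no filter on low counts and when the 6 libraries were fitted alone. Stat3, Stat5b and Stat6 had no overlap there (33.8% of all genes). The response to rmTGF-β1 differed between genotypes for none of the 9 genes with edgeR or DESeq2. The smallest adjusted p was 0.386, for Cish at 0.37, which alone had an unadjusted p under 0.05, and 0.0861% of all genes passed.

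Without any agent, 5 of the 9 genes differed between genotypes, beside 47.1% of all genes (23.2% higher and 24.0% lower). Stat2, Stat5b (log2 fold change 0.14, adjusted p = 0.0128) and Stat6 were higher in the libraries labelled TLR4-/-, and Socs2 and Cish were lower. PBS libraries of the genotypes did not overlap for these and for Stat5a, 6 of 9 genes beside 51.7% of all genes. All 13 macrophage markers were higher in the same comparison, with a median log2 fold change of 1.97. Their part in these 5 differences was not tested.

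Upstream of the STAT proteins, most ligand genes and some receptor genes rose with rmCIRP in WT. The lists used here and below were chosen with earlier results of these data known, so their shares beside all genes are descriptive only. Of 16 ligand genes listed 14 were tested (Il13 and Ifnb1 had too few reads), and 12 rose and none fell, with a median log2 fold change of 2.12, where 19.8% of all genes rose, 24.1% fell and the median was -0.02. Il10, an anti-inflammatory cytokine that signals through STAT3, averaged 0.99 ± 1.00 normalised counts with PBS and 131 ± 44.3 with rmCIRP, and Il27, a cytokine of the IL-6 and IL-12 families, 2.66 ± 1.48 and 221 ± 34.9 (SD, n = 3, no fold given because of the counts near 0). Of 18 receptor chains 9 rose and 5 fell (median 0.14). Csf3r, the receptor of granulocyte colony-stimulating factor, rose from 24.7 ± 3.86 to 132 ± 8.62 (log2 fold change 2.41, adjusted p = 1.58e-09) and Il2rg, the chain common to the interleukin 2 family, from 78.6 ± 3.69 to 152 ± 3.35 (0.95, adjusted p = 1.43e-07). Il7r fell by 0.77 (adjusted p = 0.0385), a call lost without WT PBS library 1 or 2 or WT rmCIRP library 2, and Il6ra by 0.31 (adjusted p = 0.0167), lost without WT rmCIRP library 2. Of the 4 JAK genes 3 rose and none fell, Jak2 by 0.43 (adjusted p = 1.49e-06) and Tyk2 by 0.16 (adjusted p = 0.0052).

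Among 12 other inhibitors and phosphatases of the pathway, 3 rose and 3 fell (median 0.07), a share near the 43.9% called among all genes. Ptpn2 (0.31, adjusted p = 2.88e-05) and Ptpn1 (0.21, adjusted p = 0.00825), phosphatases that act on JAKs and STATs, were the largest rises. Pias1 (fell by 0.17, adjusted p = 0.00944) and Pias3 (fell by 0.16, adjusted p = 0.019), which bind STATs in the nucleus, were the largest falls. Of 14 tested STAT partners and target genes (Retnla had too few reads) 9 rose and 1 fell, with a median of 0.58. The 1 that fell was Igf1, insulin-like growth factor 1, a classical STAT5 target (fell by 0.60, adjusted p = 3.54e-08). With rmCIRP on top of rmTGF-β1 the counts were 2 JAK genes up and 0 down, 11 and 0 of the ligands, 9 and 1 of the receptors, 5 and 3 of the inhibitors, and 8 and 1 of the partners and targets, where 20.5% of all genes rose and 21.7% fell. There Jak2 rose by 0.32 (adjusted p = 9.03e-05) and Csf2rb, the receptor chain shared by granulocyte-macrophage colony-stimulating factor and interleukins 3 and 5, by 1.31 (adjusted p = 4.84e-07).

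**Figure D5:**
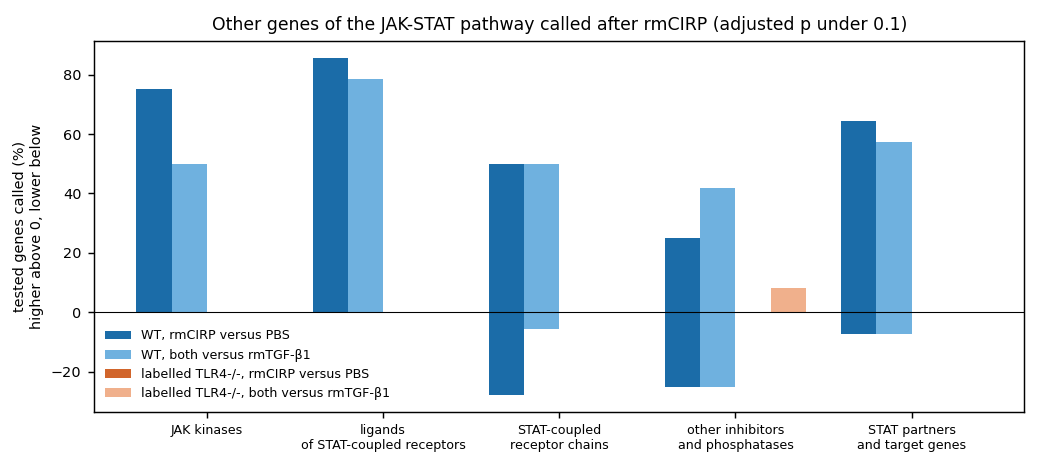
Share (per cent) of the tested genes of each pathway list called higher (bars above 0) and lower (bars below 0) at an adjusted p under 0.1, for rmCIRP against PBS and for both agents against rmTGF-β1 in each genotype. With rmCIRP alone, 12 of 14 ligand genes rose in WT, while among libraries labelled TLR4-/- 1 gene was called in all, an inhibitor (Socs6), with both agents.

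In libraries labelled TLR4-/- no gene of these 5 lists passed the test with rmCIRP, and only Socs6 did with rmCIRP on top of rmTGF-β1. The response differed between genotypes for 2 JAK genes, 9 ligands, 8 receptor chains (7 lower with the label and 1 higher), 5 other inhibitors (3 lower, 2 higher) and 10 partners and targets (9 lower and 1 higher), beside 31.4% of all genes (17.1% higher and 14.3% lower). Jak2 differed by -0.40 (adjusted p = 0.000563), Csf3r by -2.66 (adjusted p = 4.22e-08), Il2rg by -1.03 (adjusted p = 2.50e-06) and Igf1 by 0.65 (adjusted p = 4.85e-06). With PBS, Il10ra (2.63, adjusted p = 2.04e-15), Csf3r (2.50, adjusted p = 3.54e-10) and Ptpn6 (1.99, adjusted p = 2.02e-14), genes that macrophages also express, were higher with the label. So was Osm (2.03, adjusted p = 8.15e-07), while Tslp (-1.96, adjusted p = 1.82e-06) and Jak2 (-0.53, adjusted p = 3.56e-08) were lower. The macrophage marker sums given above moved with that comparison, and their part was not tested.

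With rmTGF-β1, Jak2 fell in both genotypes, by 0.45 in WT (adjusted p = 1.24e-05) and by 0.41 with the label (adjusted p = 2.09e-05). Il11, a fibroblast cytokine of the IL-6 family, rose in both, by 0.71 (adjusted p = 0.0675) and 1.47 (adjusted p = 0.000172), the WT call being lost without WT PBS library 1 or 3 or any WT rmTGF-β1 library. Tslp, also on the ligand list, fell in both, by 1.09 in WT (adjusted p = 0.00488) and by 1.42 with the label (adjusted p = 0.00946). No receptor chain rose and 4 of 18 fell in WT, where 12.4% of all genes were called and 6.65% fell, among them Osmr (fell by 0.40, adjusted p = 0.00229) and Il4ra (fell by 0.33, adjusted p = 0.000254). With the label 7 of 18 receptor chains fell, beside 23.9% of all genes called and 11.7% lower, among them Osmr (fell by 0.38, adjusted p = 0.00165) and Il6st, the receptor chain shared by the IL-6 family (fell by 0.35, adjusted p = 0.000377).

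The genes whose level was most like that of each member over the 24 libraries are given as a description. The libraries share their 8 conditions, and the WT libraries with rmCIRP stand apart for several members, so no test was made. By Pearson's correlation of log2 CPM over 16257 other genes, Stat2 was most like the interferon-induced genes Irgm2 (0.998), Irf7 (0.997) and Ifih1 (0.996). Socs3 was most like Tnip1 (0.984), Lgals8 (0.983) and Gch1 (0.982), and Socs1 most like Slco4a1 (0.968), Psma5 (0.967) and Stx6 (0.966). For Cish the nearest were Ruvbl1 (0.968), Odc1 (0.964) and Stx6 (0.962), so Stx6 was on the lists of both Socs1 and Cish. Stat6 was closest to Paqr7 (0.988), P2rx7 (0.986) and Rab7b (0.985), Stat5b to Plxnb2 (0.954), Prss23 (0.953) and Flot1 (0.947), and Stat5a to Ankfy1 (0.911), Alas1 (0.906) and Glyr1 (0.904). Stat3 was closest to Gulp1 (0.916), Cemip (0.912) and Gpr176 (0.908), and Socs2 to Lrrk2 (0.961), Zfp52 (0.947) and Hsph1 (0.946).

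Over the 8 conditions, the ratio of the highest to the lowest mean was 10.7 for Stat2, 4.40 for Socs1, 3.72 for Socs3, 2.15 for Cish, 1.52 for Stat5a, 1.49 for Stat6, 1.42 for Socs2, 1.36 for Stat5b and 1.17 for Stat3. For Stat2, Socs1, Socs3, Cish and Stat5a the highest 2 conditions were WT with rmCIRP and WT with both agents. These 2 overlapped for Stat2, Socs1 and Stat5a but not for Socs3 and Cish, and their lowest library lay above every library of the condition next in order for each of the 5 genes. For Stat5b the same 2 WT conditions were the lowest, overlapping with each other and not with WT with PBS, the next above. For Stat6 the order was that of the genotypes, all 4 conditions with the TLR4-/- label above all 4 WT ones, and for Socs2 all 4 WT conditions had higher means than all 4 with the label. Between neighbours in the order of Stat3, libraries overlapped throughout.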

How the data were processed

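RNA of 24 fibroblast libraries, 3 per condition, was sequenced (TruSeq Stranded Total RNA, NextSeq 550). According to the study's methods the authors checked reads with FastQC, aligned them with STAR2 to a mouse GENCODE reference, counted reads per gene with HTSeq, and deposited these raw counts. The submitters' processing notes name NCBIM37, and versions, annotation release and strand setting are not given in the sources used here. The 5 tally lines (14.5% to 16.1% of reads) were left out, which left 29853346 to 39664606 reads per library.

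Counts were fitted with edgeR 4.0.16 (R 4.3.3): TMM normalisation, filterByExpr (16258 genes), 1 quasi-likelihood model over all 24 libraries and Benjamini-Hochberg adjusted p under 0.1. The fit was tested on simulated data. Normalised counts are counts divided by DESeq2 1.42.0 size factors, and CPM per kilobase use GENCODE M21 exon lengths. Alternatives were DESeq2, RLE normalisation, 2 other filters, a replicate block, only the libraries compared, and each library left out. Replicate numbers did not pair libraries over the series (84 pairs, mean r 0.012, 4 over 0.1). The highest r, 0.37, joined library 3 of rmTGF-β1 and library 3 of both agents, with the TLR4-/- label, which both stood apart within their conditions. Between the same conditions, libraries of unlike number reached 0.22 (rmTGF-β1 library 2 and library 1 of both agents). A factor shared by these libraries was not tested.

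Members and lists were chosen with earlier results of these data known. Named were all 9 genes, genes from among the up to 2 largest rises and 2 largest falls per pathway list and comparison, and the 3 genes most correlated with each. Not all of these rises and falls are printed, some because their folds rest on counts near 0 and others for length. Lists not printed gene by gene are given as counts.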

Additional observations from a re-analysis of the deposited data

Results flagged for a closer look

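The response to rmCIRP differed between WT libraries and those labelled TLR4-/- for 7 of the 9 genes, by the test of the difference itself in the edgeR model (31.4% of all genes passed it). The differences, TLR4-/- label minus WT on the log2 scale, were -3.002 for Stat2 (adjusted p = 3.45e-08), -1.88 for Socs1 (adjusted p = 1.63e-06), -1.59 for Socs3 (adjusted p = 3.33e-07), -0.61 for Cish (adjusted p = 0.00435) and -0.35 for Stat5a (adjusted p = 0.0207). They were 0.24 for Stat5b (adjusted p = 0.00896) and 0.15 for Stat6 (adjusted p = 0.0221).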

How the results depend on the processing

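Of 56 values reported for the 9 genes, 54 kept their direction and their side of the threshold with DESeq2, 56 with RLE normalisation, 55 with a mean count of at least 10 as filter, 45 without any filter, 54 when only the libraries compared were fitted, and 55 with the replicate block. The block changed only Socs3 with rmTGF-β1 in WT, which was then called. Since replicate numbers do not pair the libraries over the series (correlations from -0.12 to 0.37), the block is given here only. Of such comparisons with 1 library left out, 388 held, 15 lost the call, 4 gained one and 13 changed sign. Calls lost in this way are named with their genes in the report, and the causes of the changes below were not tested. Fitting without a low-count filter changes the genes that are tested and the shared spread.

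For rmCIRP in libraries labelled TLR4-/- (0 genes called), DESeq2 called 32 genes, no filter 149, the replicate block 1 and only the libraries compared 36, and no filter called 1 of the 9 genes, Stat2. For both agents against rmTGF-β1 with the label (437 genes and none of the 9), DESeq2 called 924 genes and 1 of the 9, no filter 1580 and 2, the replicate block 810 genes and only the libraries compared 0. The genotype difference in the rmTGF-β1 response (14 genes) gave 173 with DESeq2, 563 with no filter, 23 with a mean count of at least 10, 22 with the block and 9 with only the libraries compared, with 1 of the 9 genes under no filter. The WT interaction (8 genes) gave 39 with DESeq2, 198 with no filter and 124 with only the libraries compared. With rmTGF-β1, 1 of the 9 genes was called in WT with no filter, and 1 with the label with only the libraries compared.

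Leaving out 1 library at a time gave 0 to 9 genes for rmCIRP with the label, 0 to 2675 genes and 0 to 2 of the 9 for both agents against rmTGF-β1 with the label, 2532 to 3818 genes and 1 to 2 of the 9 for rmTGF-β1 with the label, 1032 to 1728 genes and 0 to 3 of the 9 for rmTGF-β1 in WT, 0 to 119 for the genotype difference in the rmTGF-β1 response and 2 to 7 for the WT interaction. In the second of these, without rmTGF-β1 library 3 the count was 2158, without library 1 of both agents 2675, without library 3 of both agents (the one that stood apart) 1, and without rmTGF-β1 library 1 it was 0. In WT with rmTGF-β1 it was 1265 without PBS library 3 and 1032 without rmTGF-β1 library 2, and with the label 2532 without rmTGF-β1 library 3. None of the estimates that changed sign was called in the full fit. For Socs2, both agents against rmTGF-β1 in WT gave 0.012 with the mean count filter and -0.054 to 0.071 with 1 library left out, and its genotype difference with rmCIRP -0.10 to 0.00065. With rmCIRP and the TLR4-/- label, the ranges were -0.032 to 0.37 for Stat2, -0.063 to 0.056 for Stat5a, -0.060 to 0.037 for Socs3 and -0.087 to 0.011 for Cish, and with rmTGF-β1 and the label -0.13 to 0.44 for Stat2. Socs1 had the lowest counts of the 9 genes and the widest intervals after Stat2.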
